A study of Rattus norvegicus with 28 samples.

Results

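The 9 genes Nr1h3, Abca1, Abcg1, Apoe, Pltp, Soat1, Lpl, Fabp4 and Fabp5, which together handle cholesterol and fatty acids in lipid-loaded macrophages (foam cells), were followed in rat spinal cord after contusion and after transplantation of neural progenitor cells (NPCs). They were selected by gene name from the array annotation, with earlier results of these data known, and all 9 of the 9 names sought were found. They are read by 11 probes and stand among 35469 features, a feature being the mean of all probes that carry 1 gene name.

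The study compared adult female Sprague Dawley rats in 7 groups of 4 arrays each, 28 arrays in all. T0 animals had no contusion (sham in the sample labels, uninjured in the study's text). T1, T2, T4 and T8 were taken 1, 2, 4 and 8 weeks after a 250 kdyn contusion at the eighth thoracic level. T1-NPC animals received NPCs right after the contusion and were taken at 1 week, whereas T2-NPC animals received them 1 week after the contusion and were taken at 2 weeks. Per the study's methods, the NPCs came from cords of adult rats and were grown as neurosphere-like cultures. The methods do not say whether the donors had been injured. Care after surgery included an antibiotic and buprenorphine for some days, and tacrolimus (FK-506), an immunosuppressant, from the day before NPC transplantation to the end. The study's methods state this care for all animals, but its start is tied to transplantation, so the timing in animals without NPCs is not clear from the sources used here. Per the same methods, injured animals without NPCs received cell-free medium. The tissue was 1.5 cm of cord around the lesion centre, so that all its cells were read together, and fewer cells of a type and less RNA per cell cannot be told apart.

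Cholesterol that macrophages take up with myelin debris or lipoproteins is either stored as esters or passed out of the cell. Oxidised forms of cholesterol activate the liver X receptors, nuclear receptors that switch on the transporters and carriers of this efflux. In lesions of white matter, where much myelin breaks down, the balance between storage and efflux is known to shape how long macrophages remain loaded with lipid.

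Each value rests on probes of 60 bases. The 5 shown here have a reading frame without a stop codon through their whole length, as do the unprinted probes of Abcg1 and Fabp5. This trait alone does not place the 5 in coding sequence. They are printed 5′ to 3′ as the array files give them, with no capitals, since no part is singled out, and they show which stretch of transcript stands behind the values of these 5 genes. Positions are those of the array annotation (rat build rn4). The Fabp4 probe lies at chr2:93536175-93538589 (plus strand), the Pltp probe at chr3:155877758-155879914 (minus strand) and the Soat1 probe at chr13:71423884-71424171 (minus strand), intervals of 2415, 2157 and 288 bases that exceed the probe and so cross at least 1 intron. The Abca1 probe lies at chr5:70493613-70493672 and the Apoe probe at chr1:79003795-79003854, both on the minus strand and without a gap.
Fabp4: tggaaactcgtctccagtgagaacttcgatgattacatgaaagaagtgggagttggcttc
Abca1: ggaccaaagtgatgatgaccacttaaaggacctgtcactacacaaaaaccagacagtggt
Soat1: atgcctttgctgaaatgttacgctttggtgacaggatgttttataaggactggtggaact
Pltp: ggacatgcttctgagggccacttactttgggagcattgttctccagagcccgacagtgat
Apoe: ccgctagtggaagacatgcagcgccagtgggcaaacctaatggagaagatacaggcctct

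Levels are log2 values after quantile normalisation, and 1 unit is a doubling. Because probes differ in brightness, the level of one probe was never set against that of another, and genes are compared only through their differences between groups. The share of spots that the scanner software set well above background ran from 74.5% to 82.7% over the arrays and was lowest in T1-NPC replicate 2. For 16 of the 28 arrays the deposited scanner output carries the name of another sample than the column of the value table with the same rank order. Levels below follow the names in the value table. With the scanner outputs under their own names instead, none of the 9 genes was called in any comparison by limma. The share of all features called under those names is not reported here, so this count does not single out the 9 genes. Both sources name the other 12 arrays alike, and these undisputed arrays are 2 of T0, 1 of T1, 2 of T2, 1 of T4, 2 of T8 and 4 of T2-NPC. A value with the undisputed arrays at T1 or T4 thus rests on a single array. With scanner outputs matched to the value table by rank order, the 4 arrays of T1-NPC lay on 1 slide and those of T2-NPC on another. Both slides were scanned in a session that held no other group, so that transplantation, slide and scan session cannot be told apart. Under the scanner outputs' own names each of these groups also filled a slide, but both shared their scan sessions with groups without NPCs. T1-NPC replicate 2 had the lowest level of its group for 8 of the 9 genes.

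All 9 genes were higher in the injured cord than at T0. At T1 the difference ranged from 0.60 (Apoe) to 7.64 (Fabp4) on the log2 scale, with a median of 1.85, while the median of all 35469 features was -0.10. All 9 passed an adjusted p of 0.05 as higher in each of the 4 injured groups without NPCs, and so did 19.1%, 17.7%, 17.5% and 18.2% of all features, in the order of weeks. The same held in T1-NPC and T2-NPC, where 22.8% and 21.2% of all features were called higher than T0. In T1-NPC, Apoe (0.37) was no longer called with 75th percentile scaling (0.14), with the slide as a random block, with the compared groups only or without T1-NPC replicate 4 (0.24), and Nr1h3 (1.11) was no longer called with the compared groups only. In T2-NPC, Apoe went from 0.62 to 0.14, not called, with 75th percentile scaling. The genes were chosen with this difference known, so the counts describe the selection, and nothing further is drawn from them. These comparisons share the T0 arrays. For 8 of the 9 genes, every one of the 24 arrays of injured animals lay above every T0 array, a pattern shared by 8.17% of all features, and the exception was Nr1h3, for which T1-NPC replicate 2 at 10.73 lay below the highest T0 array at 10.98.

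**Figure D1:**
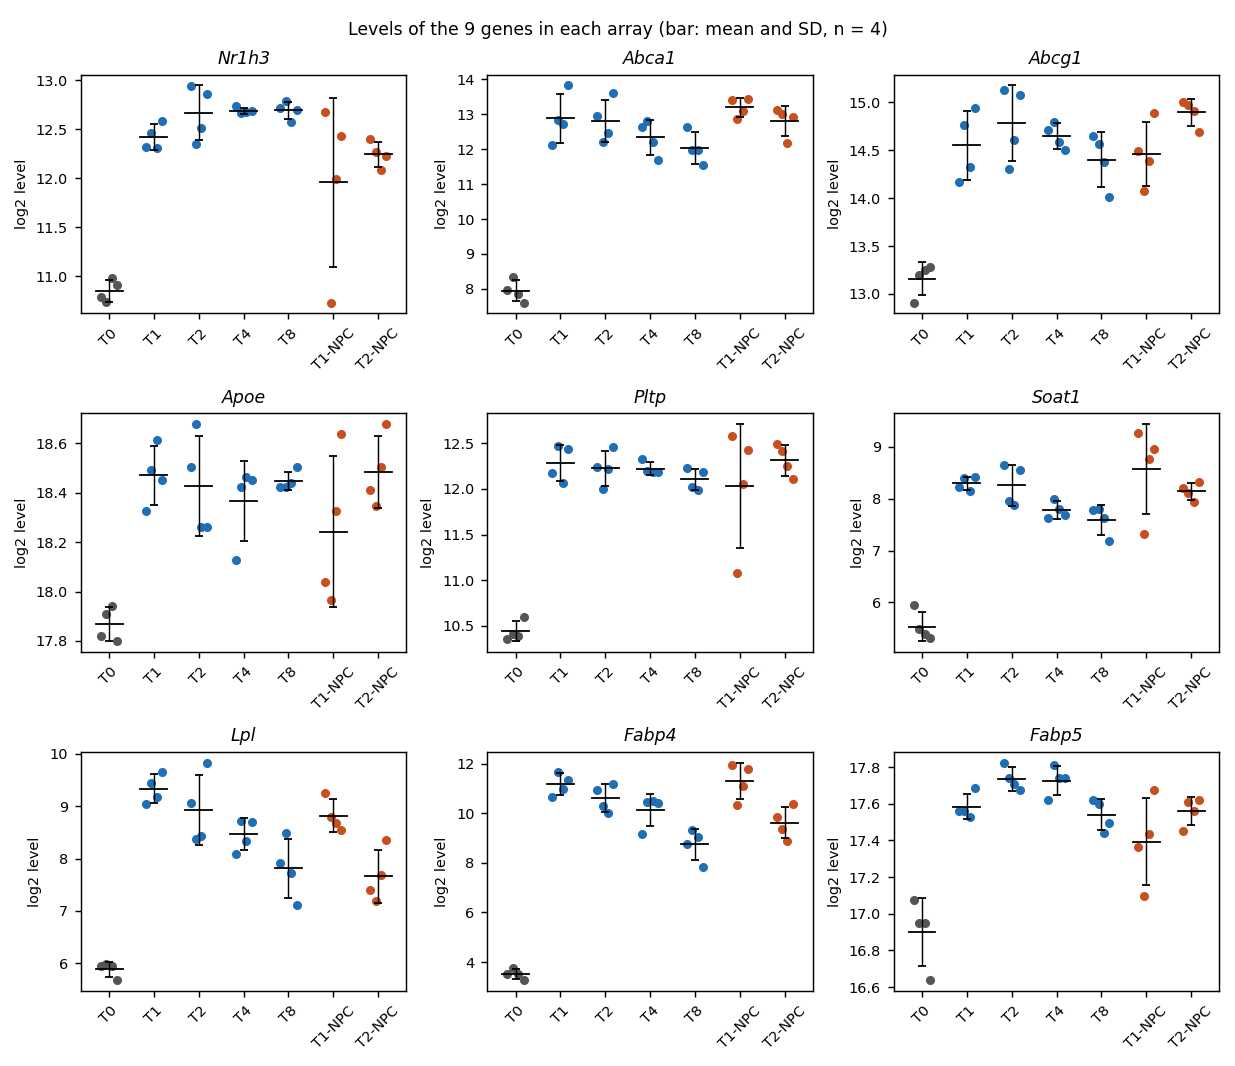
Log2 level of each gene (vertical axis, own range in each panel) in the 7 groups (horizontal axis), each point 1 array and each bar the mean and SD of 4 arrays. T0 (grey) lies below the injured groups (blue) and the transplanted groups (orange), except for T1-NPC replicate 2 at 10.73 in the Nr1h3 panel.

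Nr1h3 encodes LXRα, the liver X receptor abundant in macrophages. Its T0 arrays read 10.78, 10.73, 10.98 and 10.90, and its T8 arrays 12.71, 12.79, 12.58 and 12.69. The groups did not overlap, and the difference from T0 was 1.57 ± 0.25 (standard error) at T1, 1.82 after 2 weeks, and 1.84 at both T4 and T8. The 4 arrays of T4 were within 12.66 to 12.73, the tightest group of this gene with an SD of 0.03. T8 and T1 differed by 0.28 (95% interval -0.23 to 0.78), which did not pass the test (limma, adjusted p = 0.61).

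Abca1, the transporter that loads cholesterol onto lipid-poor apolipoproteins, had the second largest difference from T0. Its arrays read 7.96, 8.35, 7.87 and 7.61 at T0, 12.12, 12.84, 12.73 and 13.82 at T1, and 12.63, 11.99, 11.96 and 11.55 at T8. No injured array came within 3 units of T0, since the lowest, T8 replicate 4, read 11.55 against a highest T0 array of 8.35. The difference from T0 was 4.93 ± 0.33 at T1 (30.5-fold), 4.86 and 4.39 at the next time points, and 4.09 at T8 (17.0-fold). The T1 and T8 arrays overlapped, and their difference of -0.85 (95% interval -1.54 to -0.16) did not pass the correction over all features (limma, adjusted p = 0.12). Without T1 replicate 1, the lowest T1 array, it was -1.10 with an adjusted p of 0.045 in the limma fit.

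Abcg1, which passes cholesterol on to mature high-density lipoprotein, ranged from 12.91 to 13.28 at T0 and from 14.01 to 15.14 over the 16 injured arrays without NPCs. Its difference from T0 was between 1.24 and 1.62 at the 4 time points, each with a standard error of 0.20. T8 and T1 differed by -0.15 (95% interval -0.55 to 0.26).

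Apoe, the lipid carrier that astrocytes and macrophages secrete, had the smallest difference. Its arrays read 17.82, 17.91, 17.94 and 17.80 at T0 and 18.32, 18.49, 18.61 and 18.45 at T1, so that the groups lay apart by little although they did not overlap. The difference from T0 was between 0.50 and 0.60 at the 4 time points, with a standard error of 0.13. It depended on the scaling: at T1 it was 0.38 when the scanner intensities were quantile normalised again and 0.25, no longer called, when arrays were scaled to the 75th percentile, a scaling that moved the median of all features to -0.28. With the undisputed arrays, which at T0 and T1 are also those of the first scan session, the difference was 0.44 at T1 and rests on 1 T1 array.

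Pltp encodes phospholipid transfer protein, which remodels lipoproteins, and a pair of probes read it. The mean of both ranged from 10.35 to 10.60 at T0 and from 11.99 to 12.47 over the 16 injured arrays without NPCs. The probes differed in size but not in direction against T0: the one printed above was higher by 2.62 ± 0.37 at T1 and 2.29 at T8, and the other by 1.08 ± 0.16 and 1.05. After transplantation at 1 week their differences pointed in opposite ways, 0.49 ± 0.37 for the printed probe and -0.31 ± 0.16 for the other, and neither was called.

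**Figure D2:**
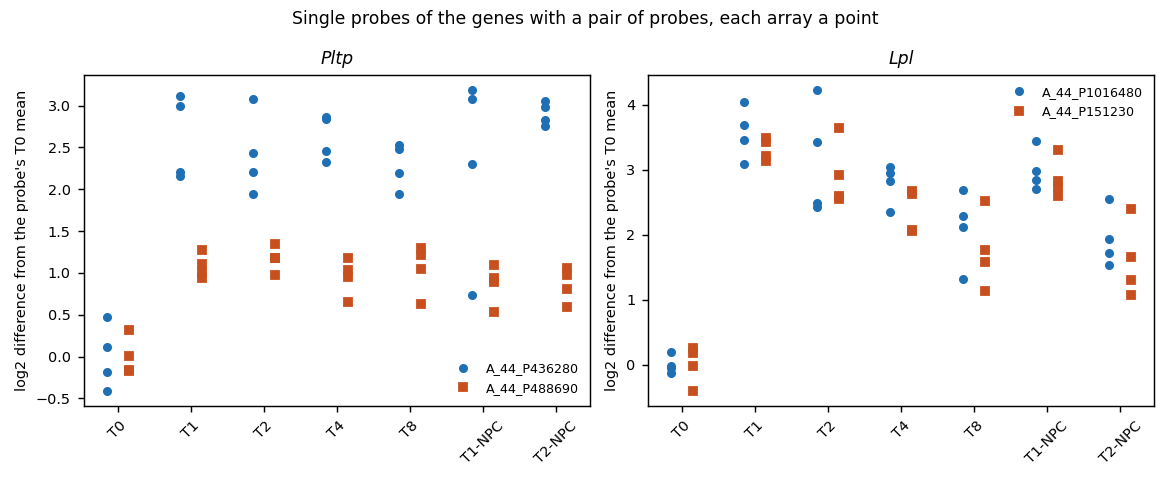
Log2 difference of each array from the mean of the T0 arrays of the same probe (vertical axis), for the probes of Pltp (left) and Lpl (right) in the 7 groups (horizontal axis). The Pltp probes differ in size, at 2.62 and 1.08 in T1, while those of Lpl lie close together, at 3.57 and 3.32.

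Soat1 is the enzyme that esterifies cholesterol for storage in droplets, the step that makes a cell foamy. Its arrays read 5.95, 5.48, 5.39 and 5.31 at T0, 8.23, 8.41, 8.16 and 8.41 at T1, and 7.77, 7.81, 7.62 and 7.18 at T8. Every T8 array lay below every T1 array. The difference from T0 was 2.77 ± 0.28 at T1 and 2.06 at T8, and that between T8 and T1 was -0.71 (95% interval -1.28 to -0.13), which did not pass the test (limma, adjusted p = 0.12). It passed with the slide or the scan session as a fixed block, at -0.69 and -0.66 with adjusted p of 0.018 and 0.019 from limma. It also passed with the compared groups only (adjusted p = 0.031), within the second scan session (-0.63, adjusted p = 0.031) and without T1-NPC replicate 2, which enters the shared spread (adjusted p = 0.0092), all by limma. With normexp background correction, which adds an offset and shrinks differences of dim spots, the difference of Soat1 from T0 was 1.49 at T1 and 0.61, not called, at T4.

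Lpl, lipoprotein lipase, frees fatty acids from triglyceride-rich lipoproteins and is made by macrophages as well as by fat and muscle. Its arrays read 5.95, 5.98, 5.95 and 5.67 at T0. They read 9.04, 9.45, 9.18 and 9.66 at T1 and 7.91, 8.49, 7.73 and 7.12 at T8. The 3 groups did not overlap. The difference from T0 was 3.45 ± 0.30 at T1 (10.9-fold), 3.04 and 2.58 at the next time points, and 1.93 at T8 (3.80-fold). From T1 to T8 Lpl fell by 1.52 on the log2 scale (95% interval -2.13 to -0.90, limma adjusted p = 0.0012), and both of its probes were lower, by 1.47 and 1.57 units.

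Fabp4, a fatty acid carrier of macrophages and adipocytes, showed the largest difference. At T0 its arrays read 3.53, 3.76, 3.53 and 3.27, and the probe was not well above background on any of them. At T1 they read 10.66, 11.67, 10.98 and 11.35, and all injured arrays were well above background. The measured difference of 7.64 at T1 therefore rests on a bound. Against the lowest signal well above background on each T0 array (mean 4.03), Fabp4 was at least 141-fold higher at T1 in the value table. At the later time points in turn it was at least 95.6-fold, 68.6-fold and 26.3-fold higher. These bounds hold for the value table only, and normexp background correction gave smaller differences, set out in the closing section. The T8 arrays read 8.78, 9.31, 9.03 and 7.85, all below the T1 arrays. From T1 to T8 Fabp4 fell by 2.42 on the log2 scale (95% interval -3.23 to -1.62, limma adjusted p = 0.00014).

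Fabp5, a related carrier found in many cell types, differed from T0 by 0.68 ± 0.10 at T1, by 0.83 at both T2 and T4 and by 0.64 at T8. Its T0 arrays lay between 16.64 and 17.07 and its T1 arrays between 17.53 and 17.69. T8 and T1 differed by -0.04 (95% interval -0.26 to 0.17), and the groups overlapped.

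**Figure D3:**
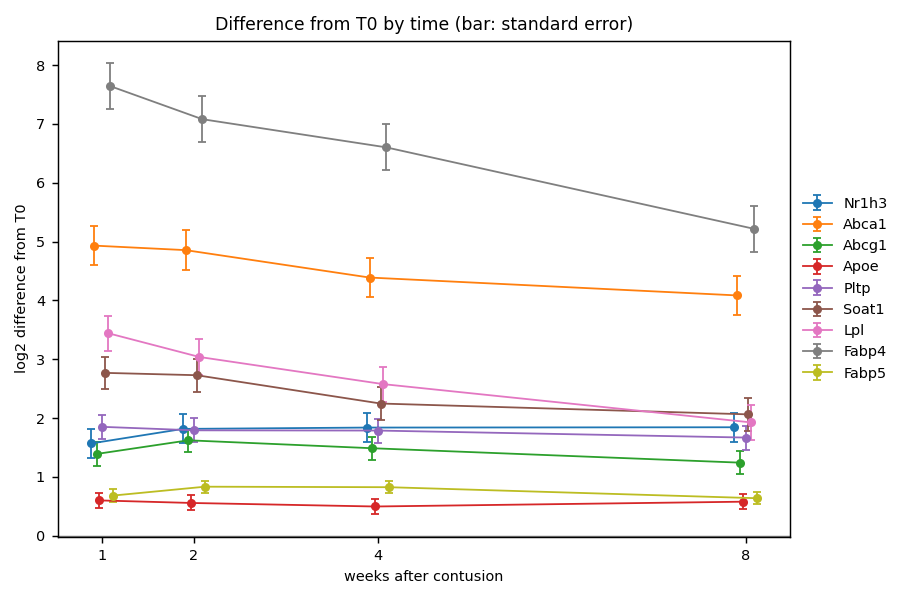
Log2 difference from T0 (vertical axis) of each gene at 1, 2, 4 and 8 weeks after contusion (horizontal axis), with the standard error from the fit as a bar. Fabp4 goes from 7.64 to 5.22 (measured differences, T0 not above background) and Lpl from 3.45 to 1.93, while Nr1h3 stays between 1.57 and 1.84.

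The comparison of injured groups with each other asks how the levels moved once the cord had been injured. In T8 against T1, Fabp4 and Lpl passed the test as lower, 2 of the 9 genes, beside 4.42% of all features called lower. Abca1 and Soat1 passed only before the adjustment. Between neighbouring time points none of the 9 genes was called by limma, where 1.48% (T2 against T1), 0.0761% (T4 against T2) and 0.0902% (T8 against T4) of all features were called in either direction. Before adjustment, Fabp4 (-1.38) and Lpl (-0.65) were below 0.05 in T8 against T4, 2 of the 9, and 0 of the 9 were so at the earlier steps. Both calls against T1 held within the second scan session (Fabp4 -2.43, adjusted p = 0.0084, and Lpl -1.61, adjusted p = 0.0085, limma). Within the first session, where T1 had 1 array and T8 had 2, the differences were -2.08 and -1.23 and neither was called (adjusted p = 0.20 and 0.36, limma). T8 replicate 4 had the lowest T8 level for 5 of the 9 genes. Leaving out any 1 array kept both calls, with Fabp4 between -2.62 and -2.13 and Lpl between -1.75 and -1.29.

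Transplantation right after the contusion was compared with the injured cord at 1 week. None of the 9 genes differed between T1-NPC and T1 by limma, while 11.9% of all features did, and 0 of the 9 had an unadjusted p below 0.05. The differences ran from -0.52 (Lpl, 95% interval -1.13 to 0.10) to 0.32 (Abca1, 95% interval -0.37 to 1.01), so that changes of up to about a doubling remain within the intervals. T1-NPC replicate 2 stood low for several genes: Nr1h3 read 12.68, 10.73, 11.99 and 12.43, Soat1 read 9.26, 7.31, 8.77 and 8.95, and Pltp read 12.58, 11.07, 12.06 and 12.42 in the T1-NPC arrays. Without it, Soat1 was higher in T1-NPC by 0.69 (limma adjusted p = 0.028), the only gene of the 9 then called. The summed level of the 12 markers of macrophages and microglia was lowest in the same array, at 18.16 against 18.97 to 19.14 in the other T1-NPC arrays, and its part in the result was not tested.

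Transplantation 1 week after the contusion was compared with the injured cord at 2 weeks. Lpl was lower in T2-NPC, with 7.40, 7.19, 7.69 and 8.36 against 9.06, 8.38, 8.44 and 9.82 in T2. All T2-NPC arrays lay below the T2 arrays, the nearest pair being 8.36 and 8.38. The difference was -1.27 ± 0.30 (95% interval -1.88 to -0.65, limma adjusted p = 0.0094), or 0.416 times the T2 level, and both probes were lower (-1.21 and -1.32). Lpl was the only one of the 9 genes called, beside 4.85% of all features called lower. The call was lost when only T2 and T2-NPC entered the fit (same difference, limma adjusted p = 0.083), and with the undisputed arrays the difference was -0.75 (limma adjusted p = 0.25). Slide and scan session differ between these groups, and their part in the difference cannot be told apart from that of the cells.

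Fabp4 read 9.84, 9.38, 8.89 and 10.37 in T2-NPC against 10.93, 10.29, 10.00 and 11.19 in T2. The groups overlapped, and the difference of -0.98 (95% interval -1.79 to -0.18) did not pass the correction (limma adjusted p = 0.11). Fabp5 read 17.45, 17.61, 17.56 and 17.62 in T2-NPC against 17.82, 17.74, 17.71 and 17.67 in T2, all lower, but by only -0.17 (95% interval -0.39 to 0.04, limma adjusted p = 0.33). The efflux genes Abca1 (0.00), Abcg1 (0.12) and Apoe (0.06) had differences near 0, with intervals of -0.69 to 0.69, -0.29 to 0.52 and -0.21 to 0.32. Nr1h3 differed by -0.42 (95% interval -0.93 to 0.09) and was called only without T1-NPC replicate 2, which enters the shared estimate of the spread (limma adjusted p = 0.039). The effects at the earlier and later transplantation did not differ from each other for any of the 9 genes by limma, with 0.299% of all features called, and 0 of the 9 were below 0.05 before adjustment. For Lpl the effects differed by -0.75 (95% interval -1.62 to 0.12).

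**Figure D4:**
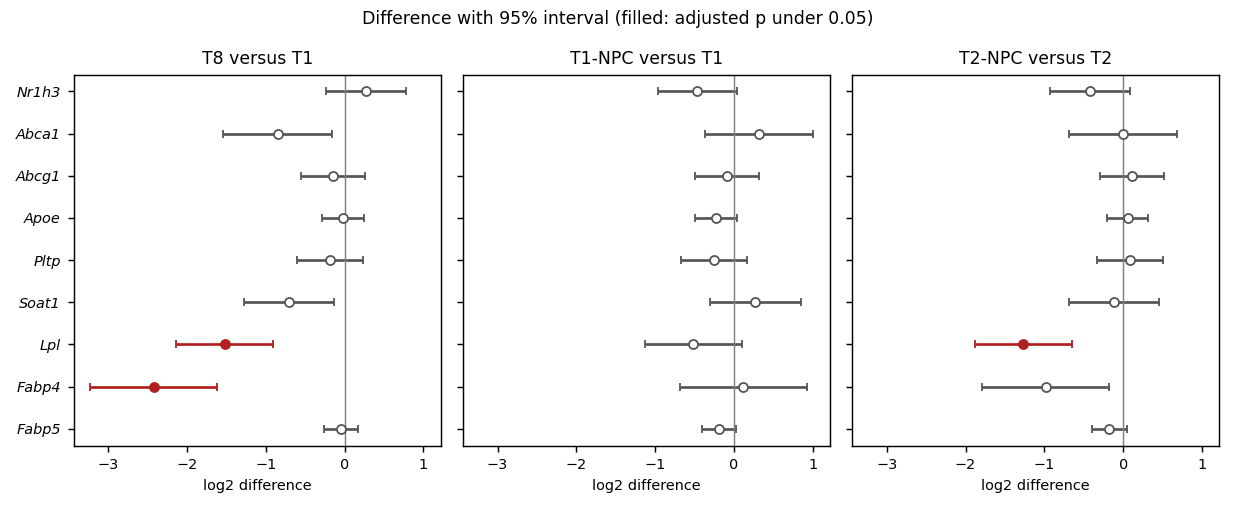
Log2 difference (horizontal axis) with its 95% interval for each gene (vertical axis) in T8 against T1, T1-NPC against T1 and T2-NPC against T2, filled where the adjusted p was under 0.05. Filled points are Lpl (-1.52) and Fabp4 (-2.42) on the left and Lpl (-1.27) on the right.

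Over the 24 arrays of injured animals, the pairs of the 9 genes with the most similar patterns were Fabp4 with Lpl (Pearson r = 0.83, Spearman rho = 0.83) and Soat1 with Fabp4 (r = 0.79, rho = 0.81). Their order turned without T1-NPC replicate 2, where Soat1 with Fabp4 had 0.84 and Fabp4 with Lpl 0.83. With the mean of each group removed, Fabp4 with Lpl had 0.69 and Soat1 with Fabp4 0.77. Other pairs then stood higher, Nr1h3 with Pltp at 0.94 and Soat1 with Nr1h3 at 0.92. These values include T1-NPC replicate 2, low for Nr1h3, Soat1 and Pltp, and were not computed without it. With group means kept, Soat1 with Nr1h3 had 0.20 over all 24 arrays and -0.17 without that array. Nr1h3 and Abca1 had r = -0.08 over the same arrays and 0.44 with group means removed. The similarity of Nr1h3 and Pltp over all 24 arrays (r = 0.74) rested on T1-NPC replicate 2, since it was 0.18 without that array. All pairs share slide, scan session and animal, and the values are descriptive.

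**Figure D5:**
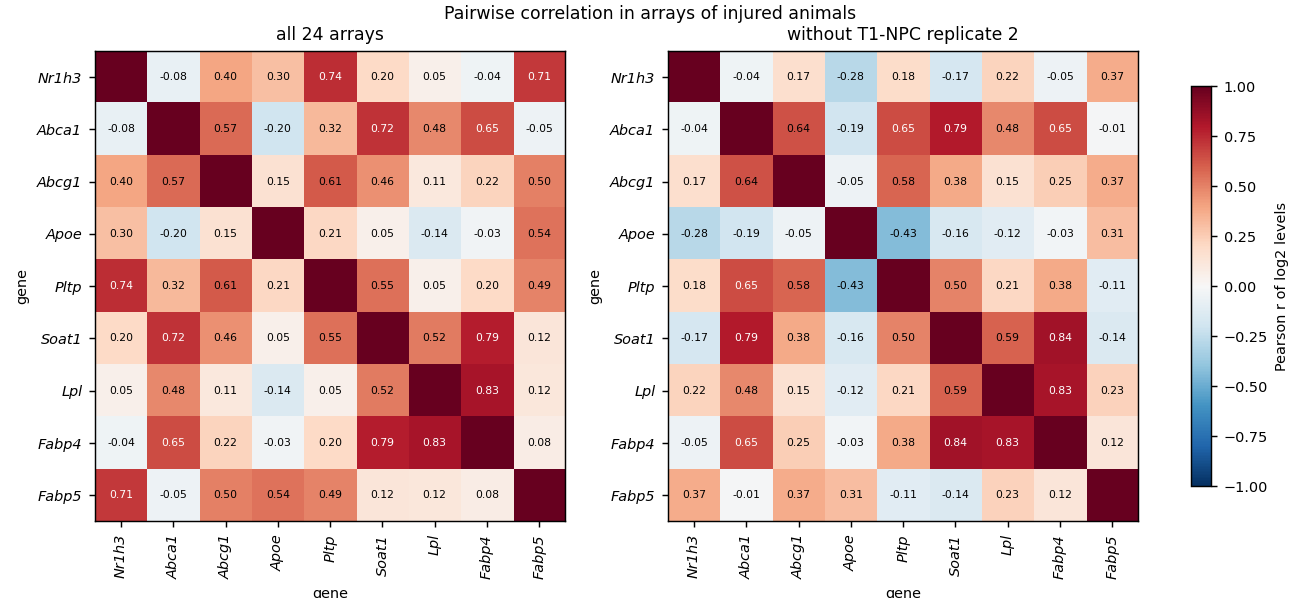
Pearson r of log2 levels between each pair of genes (both axes) over the 24 arrays of injured animals (left) and without T1-NPC replicate 2 (right), on a colour scale from -1 to 1. Fabp4 and Lpl stay at 0.83, while Nr1h3 and Pltp go from 0.74 to 0.18.

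Among the 12306 other features whose name is a current gene symbol, the closest to Fabp4 over these 24 arrays were Cdc27 (r = 0.91) and Cd36 (r = 0.91), of which Cd36 encodes a scavenger receptor and fatty acid transporter of macrophages. The closest to Lpl were Ireb2 (0.87) and Plk4 (0.86), and these were 0.55 and 0.56 with group means removed. Soat1 was closest to Slc39a8 (0.94) and Slc35f5 (0.92), Nr1h3 to Bet1 and Stat5a (both 0.92), Pltp to Adcy4 and Tmem176b (both 0.92), and Abca1 to Snx6 and Tmem86a (both 0.88). Abcg1 was closest to Bbc3 (0.89) and Tmem43 (0.85), Fabp5 to Trim17 and Cldn7 (both 0.85), and Apoe to Ccnb1ip1 (0.78) and Kcnk15 (0.70). All of these values include T1-NPC replicate 2, the array that stood low for several genes, Nr1h3, Soat1 and Pltp among them.

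Other genes of lipid handling moved in both directions. Of 8 measured genes of lipid uptake, 5 were called higher and 2 lower at T1 than at T0, where 19.1% and 25.1% of all features were, and 3 were called lower in T8 than in T1. Among them Msr1, a scavenger receptor of macrophages, was not well above background on any T0 array. On the scale of the value table it was at least 119-fold higher at T1 (measured difference 8.81 ± 0.50). From T1 to T8 it fell by 1.76 (limma adjusted p = 0.025). Cd36 was higher by 5.20 ± 0.40 and fell by 2.10 (limma adjusted p = 0.0011), and Olr1, the receptor for oxidised low-density lipoprotein, was higher by 3.27 ± 0.32 and fell by 1.20 (limma adjusted p = 0.016). Olr1 was also lower in T1-NPC than in T1, by -1.30 (limma adjusted p = 0.010).

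Of 13 nuclear receptors and their targets, 3 were called higher and 4 lower at T1 than at T0, beside 19.1% and 25.1% of all features. The median of the 13 was 0.04. Those called higher were Mylip (1.72 ± 0.28), Rxra (0.83) and Nr1h2 (0.33). Those called lower were Srebf2 (-0.91 ± 0.13), Scd (-0.85 ± 0.12), Ppara (-0.55) and Srebf1 (-0.44). Mylip encodes a ubiquitin ligase, and Nr1h2 the second liver X receptor. Srebf2 and Srebf1 encode regulators of cholesterol and fatty acid synthesis and Scd a fatty acid desaturase. In T8 against T1, 3 of the 13 were called higher, as were 5.45% of all features, among them Pparg (0.88) and Srebf1 (0.77).

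Of 15 other efflux and lipoprotein genes, 2 were called higher and 6 lower at T1, beside 19.1% and 25.1% of all features, which are also the shares to read the next lists against. The 2 were Apoc1 (3.95 ± 0.50) and Apoc4 (3.79 ± 0.70), small apolipoproteins that lie beside Apoe in the genome. Abcg4 (-0.95), Abca2 (-0.77) and Abca7 (-0.66), transporters of the same family as Abca1 and Abcg1, were lower, as was Apoa1 (-0.96 ± 0.15). Apoc1 fell by 2.06 from T1 to T8 (limma adjusted p = 0.0081). Of 9 measured genes of the lysosome, storage and hydrolysis, 4 were called higher and 1 lower at T1, the largest being Lipa (2.39 ± 0.25), the lysosomal acid lipase, Npc2 (1.98 ± 0.18), a lysosomal cholesterol carrier, and Dgat2 (1.54 ± 0.21), which makes triglyceride. Of 7 other fatty acid binding proteins, 3 were called higher (Crabp2 2.79 ± 0.45, the myelin protein Pmp2 1.38 ± 0.20, and Fabp2, which was well above background on 0 of 4 T0 and 2 of 4 T1 arrays) and 1 lower (Fabp6, well above background on 1 T0 array and no T1 array), while Fabp3 had -0.51 ± 0.26 and was not called.

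Markers of cell types also differed from T0, in both directions. Of 12 markers of macrophages and microglia, 11 were called higher at T1 than at T0 (median 2.75, against 19.1% of all features called higher), and 3 were called lower in T8 than in T1 (Cd68 -0.59, Mrc1 -1.01 and Trem2 -0.65). The summed level of the 12, on the log2 scale, ran from 15.35 to 15.69 at T0, 18.71 to 18.89 at T1, 18.50 to 18.71 at T2, 18.26 to 18.48 at T4 and 18.25 to 18.41 at T8. It ran from 18.16 to 19.14 in T1-NPC and from 18.41 to 18.66 in T2-NPC, and 0 of the 12 markers were called in T2-NPC against T2 by limma (1 before adjustment, Itgam). The part of these cells in the levels of the 9 genes was not tested. Fabp4 and Lpl are also expressed by fat cells, and of 6 adipocyte markers 2 were called higher at T1 (Cfd 5.23 and Retn 1.84), and the median of the 6 was 0.41. The summed level of these 6, carried by Cfd, ran from 9.27 to 10.08 at T0, 14.52 to 14.78 at T1, 14.13 to 14.39 at T8, 14.35 to 14.94 at T2 and 13.72 to 14.27 in T2-NPC, and Cfd was lower in T2-NPC than in T2 (-0.57, limma adjusted p = 0.0497). The defining adipocyte genes Adipoq and Lep were not well above background on any of the 28 arrays. Neuronal markers were called lower at T1 in 4 of 4 cases and oligodendrocyte markers in 4 of 5, whereas 2 of 5 endothelial, 1 of 5 astrocyte and 3 of 5 Schwann cell markers were called higher. Astrocyte and Schwann cell markers had 2 of 5 called lower each, and no endothelial marker was. Markers of other cell types moved in the comparisons that hold the Fabp4 and Lpl calls as well. In T8 against T1, 3 of 5 astrocyte markers (Aldh1l1 1.18, Aqp4 0.96 and S100b 0.58) and 3 of 5 Schwann cell markers (among them Prx 3.41 and Cdh19 1.21) were called higher. The summed level of the astrocyte markers ran from 14.96 to 15.53 at T1 and from 15.62 to 16.16 at T8, and that of the Schwann cell markers from 12.03 to 13.31 and from 14.36 to 15.08. In T2-NPC against T2, 2 of 5 oligodendrocyte markers (Mbp 1.43 and Mobp 0.70) and 1 of 5 endothelial markers (Cldn5 0.52) were called higher, as were 4.62% of all features. The summed level of the oligodendrocyte markers ran from 17.87 to 18.13 in T2 and from 18.28 to 18.41 in T2-NPC, and that of the endothelial markers from 13.43 to 13.65 and from 13.72 to 14.33. In each of these pairs the groups did not overlap, and the part of these cells in the differences of Fabp4 and Lpl was not tested.

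The promoters of 5 of the 9 genes (Abca1, Apoe, Nr1h3, Pltp and Soat1, with 3 start sites for Apoe) are in the RefSeq promoter table (GRCr8), each with 250 bases before and 50 after the start. They were searched on both strands for the element that liver X receptors bind, a DR4, that is AGGTCA repeated after 4 bases. No member promoter held it, either exactly or with up to 1 mismatch in each copy of AGGTCA, nor did most others: 0.00598% of the 33469 promoters held the exact element and 1.74% the relaxed one. This says only that these letters are not in these windows.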

How the data were processed

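RNA of 28 cord samples was hybridised with a single dye (Cy3) to rat whole-genome arrays. The authors deposited scanner output with intensity values per spot (Agilent Feature Extraction 10.7.1.1, background and trends corrected) and a value table of log2 values, quantile normalised between arrays. All 28 columns have a sample and a median of 7.26. In the main analysis 43379 non-control spots of the value table were averaged to 41012 probes and 35469 gene names, and limma 3.58.1 (R 4.3.3) fitted group means to all arrays with empirical Bayes moderation. Calls used Benjamini-Hochberg adjusted p under 0.05 over all features. Each scanner output was matched to the column of equal rank order (Spearman 1.0, next best at most 0.9932) to give background flags, slide and scan session. No spot was saturated. P-values set a difference against the spread between animals' samples within groups, shared over all groups in the fit and moderated.

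The members and gene lists were chosen with earlier results of these data known. Differences from T0, known when the genes were chosen, are given without single p-values, and their calls at the threshold are a description only. The text names all members, the 3 genes of each lipid list with the largest T1 difference, and the 2 features most like each member. Other listed genes were named after their values were seen. One gene each of the lipid uptake and Schwann cell lists is not reported here by name. The alternatives comprised scaling (quantile, 75th percentile, normexp with offset 50 on median spot signals, since mean signals were not used here), probe choice, dim probes, blocks, compared groups only and single arrays left out.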

Additional observations from a re-analysis of the deposited data

Results flagged for a closer look

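In 5 of 63 groups of 4 arrays (9 genes in 7 groups), 1 array stood apart from the other 3 by more than Dixon's 95% critical ratio for 4 values, a share that chance alone gives in about 1 of 20 groups. T4 replicate 1 was such an array for 3 genes. It was the lowest for Fabp4 (9.15, nearest 10.40, ratio 0.931) and Apoe (18.13, nearest 18.42, ratio 0.888) and the highest for Pltp (12.33, nearest 12.19, ratio 0.921). Lpl in T0 replicate 4 was low (5.67, nearest 5.95, ratio 0.905), and Apoe in T8 replicate 4 was high by a small margin (18.50, nearest 18.44, ratio 0.843). No cause was tested. T1-NPC replicate 2, low for several genes, did not reach the critical ratio for any of the 9.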

How the results depend on the processing

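Of 4993 values of single genes recomputed under other settings, 4905 kept their call or absence of a call. With the scanner outputs under their own sample names, 0 of the 9 genes were called against T0 in any of the 6 groups. Nor was any called in T8 against T1 or in T2-NPC against T2. Of the lost calls, 55 kept their direction. The other 2, Lpl and Fabp4 in T8 against T1, changed direction, to 0.33 and 1.01. The share of all features called is not reported here for these alternative settings. Under all other settings 21 calls were lost, 10 gained and 0 reversed. The undisputed arrays of T0, T1, T2, T4 and T8 are the same arrays as those of scan session 1, so these settings are not separate checks. With them, Fabp4 differed by -2.08 and Lpl by -1.23 between T8 and T1, on a single T1 array. In T8 against T1 the reported fit called 2 of the 9. The count was 3 with the slide or session as a fixed block, with the compared groups only and within scan session 2, each adding Soat1, and it ranged from 2 to 3 with single arrays left out, 3 without T1 replicate 1 (adding Abca1) and without T1-NPC replicate 2 (adding Soat1). In T2-NPC against T2 the count was 0 with the undisputed arrays, 0 with the compared groups only and 2 with 75th percentile scaling, which adds Fabp5 (-0.47), against 1 as reported. In T4 against T2 it was 1 within scan session 2 (Soat1, -0.79) against 0. With single arrays left out, counts ranged from 0 to 1 in T1-NPC against T1 and from 1 to 2 in T2-NPC against T2, both upper values without T1-NPC replicate 2. Apoe in T1-NPC against T0 was not called without T1-NPC replicate 4 (0.24). Both session settings and the outlier spots kept were added after seeing the data. Against T0, normexp correction lowered the differences of Fabp4, Lpl and Soat1 by over 1.5 times at all 4 time points (Fabp4 4.20, Lpl 2.16 and Soat1 1.49 at T1). Scaling to the 75th percentile moved the median of all features in T1 against T0 to -0.28. Same-numbered arrays did not deviate together (median r 0.0024 over 84 pairs, 19 above 0.1), so the numbers are not taken as pairs. With the replicate block, Fabp4 and Lpl in T8 against T1 stayed at -2.42 and -1.52 (limma adjusted p = 0.00041 and 0.0026) and Lpl in T2-NPC against T2 at -1.27 (0.016), and no count of called genes changed. Slide or session as a fixed block could not be fitted for the transplant comparisons. The number of arrays, 4 per group, limits the precision, as do the dim signals of Fabp4 at T0.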
